A study of Mus musculus with 6 samples.

Results

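Genes for splicing regulators were examined in whole mouse brain after exposure to plastic nanoparticles. The set held 55 of the 27378 genes listed in each library. Members were taken by symbol: every gene whose name starts with Hnrnp, and the numbered genes of the Srsf, Rbfox, Celf, Ptbp, Mbnl, Nova, Elavl and Khdrbs families, leaving out pseudogenes and opposite-strand transcripts. That gave 20 hnRNP genes, 11 SR genes and 24 genes of the other 7 families. RNA sequencing was done on wild-type male C57BL/6J mice, a standard inbred strain. In the PS group, 3 libraries came from brains of mice given polystyrene nanoplastics through the nose over 28 days. In the control group, 3 libraries came from mice that received sterile distilled water, also intranasally and for 28 days. The dose, the age of the mice and whether each library is a separate animal are not stated in the labels used here. P-values therefore set the group difference against the spread between these libraries, which may be partly technical. In limma, the method used for single genes, that spread is pooled in part over genes.

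Splicing regulators are RNA-binding proteins that decide which exons of a pre-mRNA are joined. SR proteins carry RNA-recognition motifs and a tail rich in arginine and serine, and mostly promote use of the exons they bind. Heterogeneous nuclear ribonucleoproteins (hnRNPs) coat nascent RNA and often silence splice sites. In brain a further layer of factors, among them the RBFOX, NOVA, neuronal ELAVL, CELF and PTBP2 proteins, sets the neuron-specific exons of synaptic and cytoskeletal genes. The title of the series names TDP-43, an RNA-binding protein related to the hnRNPs that represses exons. Gene-level RNA values do not show which exons were used or how much protein was made.

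No splicing regulator was called higher or lower in PS brains. Of the 55 genes, 53 had a mean level of at least 1 FPKM (fragments per kilobase of gene, scaled to library size) over the 6 libraries and were tested. In limma on log2(FPKM + 1), 0 of 53 passed an adjusted p of 0.05, where 0.164% of all 12229 tested genes did. Limma-voom on the recovered reads also called 0 members, and 29 of all 12229 tested genes. At an unadjusted p under 0.05 there were 3 members lower in PS (Srsf2, Srsf3 and Ptbp2) and 0 higher, against 3.29% of all tested genes lower and 2.66% higher. The members' median log2 fold change, PS over control, was -0.012, beside 0.003 over all tested genes. Positive values were seen in 23 members and negative in 30 (56.6%), where 48.6% of all tested genes were negative. Each of the 53 had a 95% interval that lay within a 1.5-fold change in either direction, as did 11942 of all 12229 tested genes. Intervals are for single genes. Between bulk libraries, fewer cells of a type and less RNA per cell cannot be told apart.

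Depth was even, at 39239183 to 40335590 reads per library, and each tested member had 698 or more reads in every library. The tissue label was met by its markers: 6 neuronal markers summed to 1945 to 2109 FPKM in PS and 1998 to 2049 FPKM in control, while 4 liver and muscle markers summed to 4.9 to 11.1 FPKM in PS and 4.1 to 5.3 FPKM in control. The 5 red-cell genes summed to 56.7 to 99.5 FPKM in PS and 127 to 196 FPKM in control, with 5 of 5 negative in log2 fold change and 0 called. The 6 endothelial markers summed to 61.7 to 68 FPKM in PS and 70.2 to 80.8 FPKM in control, with 6 of 6 negative and 1, Vwf, called lower. The 6 oligodendrocyte precursor markers summed to 109 to 113 FPKM in PS and 85.3 to 102 FPKM in control, with 5 of 6 positive and 0 called. The 6 oligodendrocyte markers summed to 1460 to 1650 FPKM in PS and 1060 to 1528 FPKM in control, with 6 of 6 positive, a median log2 fold change of 0.23 and 0 called. The 6 cerebellar granule and Purkinje cell markers summed to 271 to 379 FPKM in PS and 267 to 299 FPKM in control, with 6 of 6 positive, a median of 0.12 and 0 called. No marker of these lists was at 0 in every library. The part of these shifts in any result below was not tested.

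The promoters of 5 regulators are shown, picked because their values carry the 2 patterns described below. PS and control values did not overlap for Srsf2, Srsf3 and Ptbp2, and the control libraries split for Srsf10 and Srsf5. Srsf1, Srsf12 and Elavl1, which also did not overlap, and Hnrnpdl, for which control replicate 3 also stood apart, are not shown. The sequences are RefSeq's, 300 bases around the gene start, most of them before it, on the coding strand of build GRCm38.p6, another build than the GRCm39 named for the values. They lie at chr11:116853045-116853344 (minus strand), chr17:29032410-29032709 (plus strand), chr3:119783339-119783638 (minus strand), chr4:135855821-135856120 (plus strand) and chr12:80945249-80945548 (plus strand). Capitals mark 4 motifs searched on both strands: TATAAA (the TATA box), CCAAT (the CCAAT box), GGGCGG (the GC box) and TGACG (the core of a cAMP response element). Overlapping matches were merged into 1 run of capitals.
Srsf2: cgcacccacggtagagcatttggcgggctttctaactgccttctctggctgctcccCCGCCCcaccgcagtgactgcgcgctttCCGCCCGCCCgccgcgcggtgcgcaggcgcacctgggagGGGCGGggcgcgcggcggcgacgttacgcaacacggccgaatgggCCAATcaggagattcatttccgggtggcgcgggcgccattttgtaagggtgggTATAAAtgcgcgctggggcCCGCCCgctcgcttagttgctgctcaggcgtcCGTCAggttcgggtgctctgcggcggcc
Srsf3: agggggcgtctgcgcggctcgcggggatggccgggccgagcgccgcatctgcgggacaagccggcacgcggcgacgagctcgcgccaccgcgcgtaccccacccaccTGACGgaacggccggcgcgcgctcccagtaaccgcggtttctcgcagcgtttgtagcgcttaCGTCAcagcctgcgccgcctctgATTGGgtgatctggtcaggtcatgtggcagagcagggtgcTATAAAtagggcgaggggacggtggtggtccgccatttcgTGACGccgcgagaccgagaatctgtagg
Ptbp2: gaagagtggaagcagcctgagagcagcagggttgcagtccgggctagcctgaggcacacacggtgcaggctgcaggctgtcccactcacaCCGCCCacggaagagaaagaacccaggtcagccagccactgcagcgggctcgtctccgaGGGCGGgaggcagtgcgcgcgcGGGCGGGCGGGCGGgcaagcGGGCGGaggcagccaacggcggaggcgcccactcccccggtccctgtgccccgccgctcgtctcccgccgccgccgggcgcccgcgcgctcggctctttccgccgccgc
Srsf10: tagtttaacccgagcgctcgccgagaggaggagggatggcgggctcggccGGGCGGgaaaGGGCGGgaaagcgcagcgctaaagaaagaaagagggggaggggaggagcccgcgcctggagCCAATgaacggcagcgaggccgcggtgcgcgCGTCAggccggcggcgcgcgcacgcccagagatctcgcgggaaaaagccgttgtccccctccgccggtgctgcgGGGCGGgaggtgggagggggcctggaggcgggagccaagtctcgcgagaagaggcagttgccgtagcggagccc
Srsf5: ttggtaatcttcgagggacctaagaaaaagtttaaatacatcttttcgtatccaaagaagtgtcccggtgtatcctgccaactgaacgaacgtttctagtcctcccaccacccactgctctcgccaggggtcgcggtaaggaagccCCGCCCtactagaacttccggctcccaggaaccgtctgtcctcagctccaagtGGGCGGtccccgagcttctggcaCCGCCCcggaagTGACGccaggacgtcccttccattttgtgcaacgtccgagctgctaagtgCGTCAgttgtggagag

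Srsf2 and Srsf3 each held a TATAAA and a CCAAT match, and Ptbp2 held neither but had 6 GC-box matches. Among 32851 mouse promoters of the same length, 13.6% held a TATA box, 37.4% a CCAAT box, 35.7% a GC box and 20.8% the cAMP-response core. Among the 85 promoters of the 48 members that the table holds, the shares were 10.6% for the TATA box, 50.6% for the CCAAT box, 65.9% for the GC box and 43.5% for the cAMP-response core. Median GC content was 63.0% in those and 52.7% in all, and the motifs are themselves of unequal GC content. A match says only that these letters are present.

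SR genes as a family had a median log2 fold change of -0.10, with 0 called. Of the 11, 8 were negative and 3 positive, where 48.6% of all tested genes were negative. In 4 of the 11 the PS values all lay below the control values. Over all 53 tested members 6 did so and 0 lay above, where 6.33% of all tested genes were without overlap on the low side and 4.93% on the high side. The 6 were Srsf1, Srsf2, Srsf3, Srsf12, Ptbp2 and Elavl1.

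Srsf2 encodes SC35, a protein of nuclear speckles that strengthens exons through exonic enhancers. It had 33.3, 33.9 and 35.3 FPKM in PS brains, against 38.5, 37.9 and 39.4 FPKM in control brains. The highest PS library lay below the lowest control library, and the PS mean was 11.4% below the control mean (34.2 ± 1.05 FPKM in PS and 38.6 ± 0.77 FPKM in control, SD, n = 3 each). Its log2 fold change of -0.17 (SE 0.054, 95% interval -0.29 to -0.05) had the lowest p of the set, and limma's adjusted p over all genes was 0.586. In the GRCm38 annotation 25.3% of the exon bases of Srsf2 are shared with Mfsd11 and Mettl23 on the opposite strand, and whether counting used strand is not stated, so its level may hold reads of these.

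Srsf3 encodes the smallest SR protein, which also acts in mRNA export. It had 49.7, 51.3 and 49.6 FPKM in PS, against 55.8, 54.7 and 56.8 FPKM in control. The groups were apart by more than the spread within either, and the PS mean was 9.9% below the control mean (log2 fold change -0.15, SE 0.052, limma adjusted p = 0.716). Parts of its transcript sequence, in words of 50 bases, also occur in 9 other annotated genes.

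Srsf1, the prototype SR protein, had 25.9, 25.7 and 26.2 FPKM in PS, against 28.7, 28.7 and 26.4 FPKM in control. Control replicate 3 sat next to the PS values, with 5817 reads in it and in PS replicate 3 alike, and the log2 fold change was -0.10 (SE 0.057, limma adjusted p = 0.887). Srsf12, a relative of Srsf10, was much lower in level, at 6.05 ± 0.318 FPKM in PS and 6.61 ± 0.239 FPKM in control (SD, n = 3 each). Its groups were separated by less than 0.05 FPKM.

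The other SR genes overlapped between groups. Srsf7, known for a role in mRNA export beside splicing, averaged 24.9 ± 1.35 FPKM in PS and 26.9 ± 1.35 FPKM in control. Srsf4 averaged 13.2 ± 0.391 FPKM in PS and 14.1 ± 0.634 FPKM in control. Srsf9, Srsf6 and Srsf11 had log2 fold changes of -0.06, 0.02 and 0.06. For Srsf4, 43.0% of exon bases overlap an opposite-strand transcript.

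**Figure D1:**
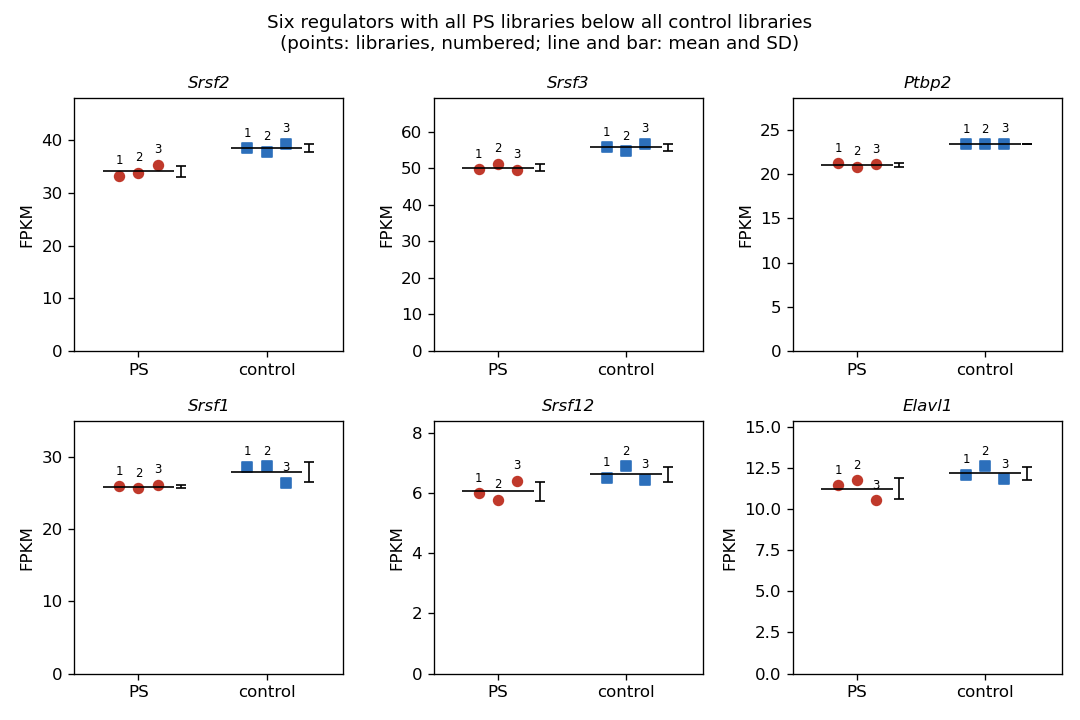
FPKM (y axis, from 0) of the 6 regulators whose 3 PS libraries (left, red circles) all lay below the 3 control libraries (right, blue squares). Lines are means and bars SDs. The gap is clear for Srsf2, Srsf3 and Ptbp2 and nearly nil for Srsf1, Srsf12 and Elavl1, and none of the 6 was called.

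PTB proteins bind pyrimidine tracts and repress exons. PTBP1 is the form of glia and other non-neuronal cells, and PTBP2 the form of neurons, which PTBP1 keeps low by altering the splicing of its mRNA. Ptbp2 had 21.2, 20.8 and 21.1 FPKM in PS, against 23.4, 23.4 and 23.5 FPKM in control. All PS values were lower, by 10.1% in the mean, and replicates were very close, with a pooled within-group SD of 0.010 on the log2 scale beside a median of 0.069 for the members. The log2 fold change was -0.15 (SE 0.052, 95% interval -0.26 to -0.03, limma adjusted p = 0.716). Limma pools the spread over genes, so its standard error is larger than the gene's own. Ptbp2 shares no exon base and no 50-base word with another annotated gene.

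Ptbp1 had 10.8, 10.7 and 9.96 FPKM in PS, against 10.7, 10.5 and 10.7 FPKM in control, and the groups overlapped (log2 fold change -0.02, SE 0.059). Opposite-strand genes share 20.7% of the exon bases of Ptbp1. The ratio of Ptbp2 to Ptbp1, both per length, was 1.96, 1.95 and 2.12 in PS and 2.18, 2.23 and 2.19 in control. PS ratios were all lower, by 0.13 on the log2 scale (two-sided exact permutation test over the 6 libraries, p = 0.1, the smallest that 3 against 3 allows). Ptbp3, the form first known from blood cells, had 3.66, 3.18 and 3.32 FPKM in PS, against 3.59, 4.20 and 3.51 FPKM in control, and overlapped.

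In a second set of genes the control libraries disagreed with each other. Srsf10, an SR-like protein that represses splicing when dephosphorylated, as after heat shock, had 9.16, 9.34 and 8.24 FPKM in PS, against 12.2, 12.5 and 8.12 FPKM in control. Control replicates 1 and 2 lay above all PS libraries and control replicate 3 below them. The log2 fold change was -0.25 (SE 0.139, limma adjusted p = 0.891), and -0.43 without control replicate 3 (adjusted p = 0.0495).

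Srsf5, an SR gene named here after its values were seen, had the opposite layout. It had 69.3, 72.4 and 67.9 FPKM in PS, against 50.7, 52.5 and 86.8 FPKM in control. The PS libraries lay between the control libraries, and Srsf5 had the widest within-group spread of the tested members (pooled SD 0.304 on the log2 scale). Its log2 fold change of 0.18 (SE 0.173, limma adjusted p = 0.975) was 0.43 without control replicate 3 (adjusted p = 0.0307). Srsf10 and Srsf5 were the members called without that library, 2 of 53, beside 0.54% of all tested genes. Other annotated genes hold 10.1% of the 50-base words of Srsf5 and 9.4% of those of Srsf10.

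Hnrnpdl, a relative of the mRNA-decay factor Hnrnpd, had 31.8, 33.3 and 32.2 FPKM in PS, against 32.0, 31.9 and 45.5 FPKM in control. Only control replicate 3 stood out among these 6 values, and the log2 fold change of -0.14 turned to 0.02 without it. Srsf10, Srsf5 and Hnrnpdl were the 3 members with the widest spread. On the log2 scale control replicate 3 differed from the mean of control replicates 1 and 2 by -0.55, 0.74 and 0.50 in them. Weighting libraries by their fit to the model gave control replicate 1 a weight of 6.01, against 0.326 and 0.353 for control replicates 2 and 3. In that fit 4 of 53 members were called, Srsf2, Srsf3, Srsf10 and Srsf5 (limma adjusted p = 0.042, 0.0466, 0.0303 and 0.0489), beside 5.17% of all tested genes.

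**Figure D2:**
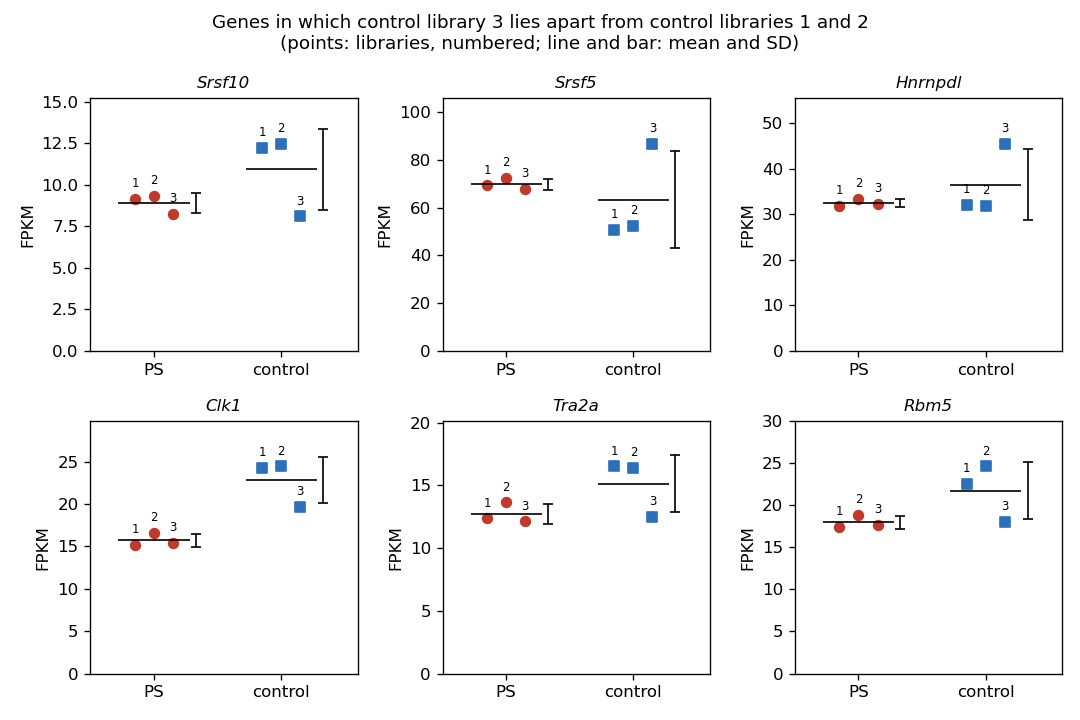
FPKM (y axis, from 0) in the 3 PS libraries (left, red circles) and the 3 control libraries (right, blue squares), numbered by replicate, with means and SDs. Control replicate 3 lies at or near the PS level for Srsf10, Tra2a and Rbm5, above all others for Srsf5 and Hnrnpdl, and between the rest for Clk1.

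The hnRNP genes had the highest summed level of the 9 families and showed 10 positive and 10 negative log2 fold changes, with 0 called, a median of 0.000 and values from -0.14 to 0.19. Hnrnpk, which binds C-rich RNA and DNA, was the highest of all members, at 131, 131 and 131 FPKM in PS, against 127, 125 and 140 FPKM in control. Control replicate 3 was the highest and control replicate 2 the lowest of the 6 libraries. Its means were 131 ± 0.446 FPKM in PS and 131 ± 8.14 FPKM in control (log2 fold change 0.00, 95% interval -0.14 to 0.14). Hnrnpa1, a silencer-binding protein with mutations known in human ALS and myopathy, came next in level. It had 94.4, 96.3 and 103 FPKM in PS, against 91.2, 79.6 and 106 FPKM in control, and control libraries spanned the PS ones (log2 fold change 0.09, SE 0.096). Other genes share 28.2% of the 50-base words of Hnrnpa1 and 14.5% of those of Hnrnpk, so the reads of both are uncertain.

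Hnrnpa2b1, known for carrying mRNAs such as that of myelin basic protein in oligodendrocytes, had 62.5, 62.8 and 60.2 FPKM in PS, against 62.1, 59.2 and 62.5 FPKM in control. The values interleaved (log2 fold change 0.01, 95% interval -0.11 to 0.14). Hnrnpm, which binds GU-rich RNA, had the largest positive value of the set. It stood at 32.7, 32.8 and 28.5 FPKM in PS, against 29.5, 28.2 and 24.4 FPKM in control, so PS replicate 3 lay within the control range. The log2 fold change was 0.19 (SE 0.085, 95% interval -0.00 to 0.38, limma adjusted p = 0.842), and 14.7% of the exon bases of Hnrnpm overlap a same-strand neighbour in the GRCm38 annotation.

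Hnrnpc, which binds uridine tracts, had 45.2, 47.5 and 42.4 FPKM in PS, against 43.3, 43.5 and 41.7 FPKM in control, and PS replicate 3 again overlapped. Hnrnpab had 60.2, 61.5 and 59.4 FPKM in PS, against 60.7, 62.3 and 64.9 FPKM in control. Its means were 60.4 ± 1.08 FPKM in PS and 62.7 ± 2.12 FPKM in control (SD, n = 3 each). Hnrnph1, which binds runs of G, had 27.0, 26.75 and 25.5 FPKM in PS, against 26.9, 28.2 and 27.3 FPKM in control. Its means were 26.4 ± 0.81 FPKM in PS and 27.5 ± 0.679 FPKM in control. Both overlapped between groups. The opposite-strand gene Phykpl overlaps most of the 29.1% of Hnrnpab exon bases that are shared.

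The remaining 13 hnRNP genes were Hnrnpa0, Hnrnpa3, Hnrnpd, Hnrnpf, Hnrnph2, Hnrnph3, Hnrnpl, Hnrnpll, Hnrnpr, Hnrnpu, Hnrnpul1, Hnrnpul2 and, described above, Hnrnpdl. Without Hnrnpdl their log2 fold changes lay between -0.05 and 0.04. Other genes share 36.8% of the 50-base words of Hnrnpf, 27.1% of those of Hnrnpa3 and 15.9% of those of Hnrnph2. Opposite-strand transcripts also overlap 26.5% of the exon bases of Hnrnpf, so the reads of these genes are uncertain too. Hnrnpll, the regulator of CD45 splicing in T cells, stood at 19.9 ± 0.555 FPKM in PS and 20.1 ± 0.217 FPKM in control. Summed over the 20 genes, hnRNP levels were 836, 845 and 827 FPKM in PS, against 822, 806 and 871 FPKM in control. Control libraries lay on both sides of the PS sums.

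**Figure D3:**
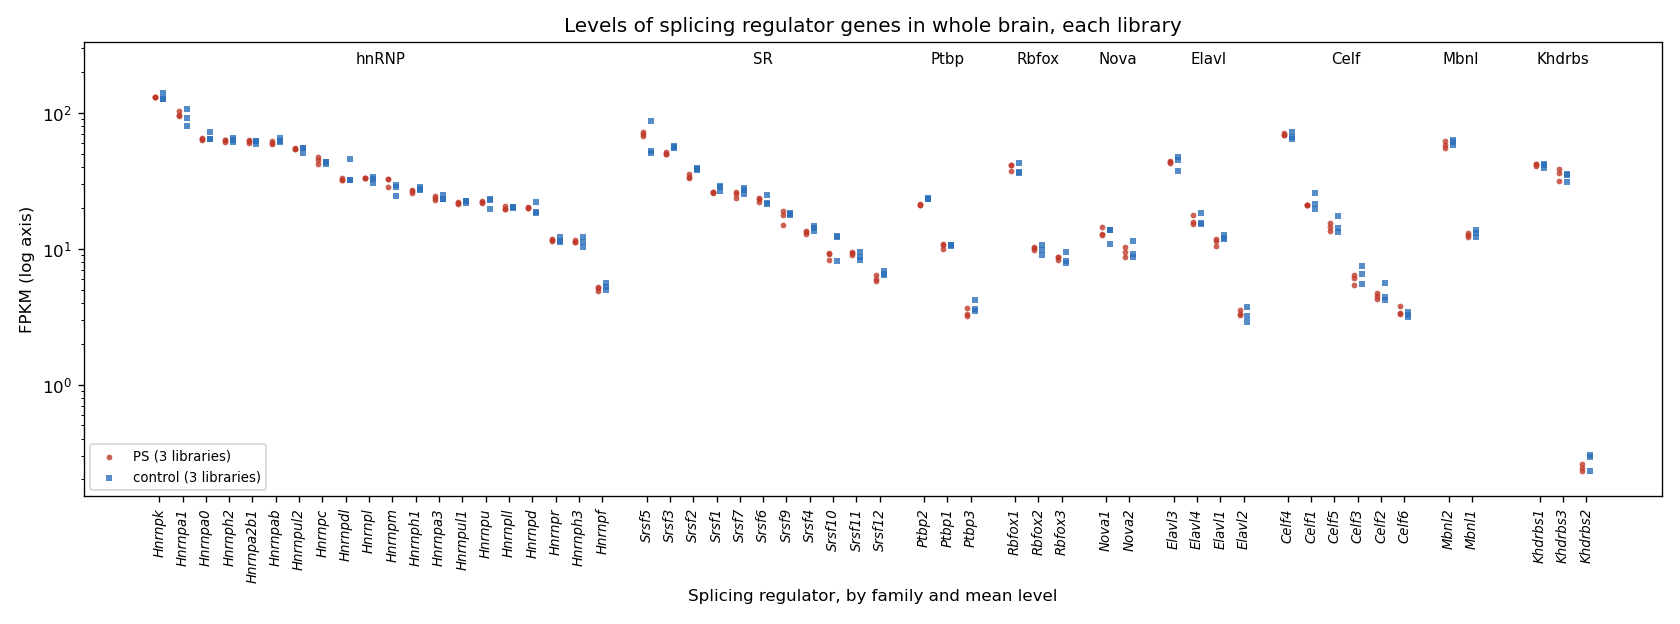
FPKM on a log axis (y) of 54 members in each library, by family and mean level (x), PS left as red circles and control right as blue squares. Mbnl3, at under 0.03 FPKM in every library, is off the axis. Within a gene the 2 groups lie close together beside the spread of levels between genes.

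Among neuronal factors, the RBFOX proteins promote or skip exons according to where they bind. Rbfox1 had 41.6, 41.3 and 37.4 FPKM in PS, against 36.9, 43.0 and 35.9 FPKM in control (log2 fold change 0.06, 95% interval -0.12 to 0.24). Rbfox2 had 10.4, 10.1 and 9.81 FPKM in PS, against 9.85, 10.7 and 8.96 FPKM in control. Rbfox3, which encodes the neuronal nuclear antigen NeuN, had 8.71, 8.68 and 8.32 FPKM in PS, against 7.88, 9.47 and 8.16 FPKM in control. The groups overlapped in all 3 genes and control replicate 2 was the highest library in each. Lengths recovered from the values were 24610 bases for Rbfox2 and 25629 for Rbfox3, against 8897 bases for Rbfox1. The GRCm38 annotation lists fewer exon bases, at 8140 for Rbfox2, 5818 for Rbfox3 and 4400 for Rbfox1. Part of the gap in FPKM may come with length, and how much is uncertain. The reads were 12670 to 15015 for Rbfox1, 8736 to 10325 for Rbfox2 and 8011 to 9520 for Rbfox3.

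NOVA proteins, first known as autoantigens of a paraneoplastic brain disease in people, bind clustered short motifs in synaptic pre-mRNAs. Nova1 had 14.4, 12.6 and 12.8 FPKM in PS, against 13.7, 10.9 and 13.8 FPKM in control. Nova2 had 9.50, 10.3 and 8.71 FPKM in PS, against 9.21, 11.5 and 8.67 FPKM in control. The groups overlapped in both, with log2 fold changes of 0.05 and -0.03. Control replicate 2 was the lowest library for Nova1 and the highest for Nova2. An opposite-strand transcript covers 31.7% of the exon bases of Nova2.

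ELAVL proteins bind AU- and U-rich RNA; Elavl1 (HuR) is made in most cells and the other 3 mainly in neurons. Elavl1 had 11.4, 11.7 and 10.5 FPKM in PS, against 12.1, 12.6 and 11.8 FPKM in control. PS values were all lower, the closest pair differing by less than 0.1 FPKM, and the log2 fold change was -0.10 (SE 0.064, limma adjusted p = 0.919). Elavl3 had 44.4, 42.5 and 43.5 FPKM in PS, against 44.8, 47.0 and 37.5 FPKM in control, and control libraries lay on both sides.

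Elavl4 had 17.7, 15.2 and 15.6 FPKM in PS, against 18.4, 15.1 and 15.6 FPKM in control, and Elavl2 had 3.52, 3.29 and 3.27 FPKM in PS, against 3.70, 2.91 and 3.202 FPKM in control. Their groups overlapped almost wholly (log2 fold changes -0.01 and 0.03). In FPKM the order was Elavl3, Elavl4, Elavl1 and Elavl2, without overlap between neighbours in any library. The recovered length of Elavl2 was 32397 bases, where the GRCm38 annotation lists 8313 exon bases. In recovered reads it was close to Elavl4, with 3696 to 4759 reads beside 3796 to 4675.

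CELF proteins bind GU-rich sites. Celf4, the most abundant of the 6, averaged 69.7 ± 1.59 FPKM in PS and 67.95 ± 3.9 FPKM in control. Celf3 had 5.41, 6.39 and 6.10 FPKM in PS, against 5.52, 7.48 and 6.54 FPKM in control (log2 fold change -0.10, SE 0.102). Celf6 had 3.37, 3.28 and 3.77 FPKM in PS, against 3.41, 3.14 and 3.24 FPKM in control (log2 fold change 0.07). In both genes the groups overlapped. Celf1, Celf2 and Celf5 had log2 fold changes of -0.07, -0.06 and -0.04, and each was highest in control replicate 2. Without that library the values turned to 0.03 for Celf1, 0.05 for Celf2 and 0.07 for Celf5.

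In these families 1 control library stood at an end of the range each time, a pattern noticed after the values were seen. Of the 15 Rbfox, Nova, Elavl and Celf genes, control replicate 2 was the highest of the 6 libraries in 11 (Rbfox1, Rbfox2, Rbfox3, Nova2, Elavl1, Elavl3, Celf1, Celf2, Celf3, Celf4 and Celf5) and the lowest in the other 4 (Nova1, Elavl2, Elavl4 and Celf6). Over all tested genes it was the highest library in 23.7% and the lowest in 30%. Over the 53 tested members of all families, control replicate 2 was the highest in 43.4% and the lowest in 18.9%. Control replicate 3 was the lowest library for Rbfox1, Rbfox2, Nova2, Elavl3, Celf1, Celf2 and Celf4. It was the lowest in 28.3% of the tested members and 17.9% of all tested genes. Summed oligodendrocyte marker levels were 1570, 1460 and 1650 FPKM in PS and 1413, 1060 and 1528 FPKM in control, so control replicate 2 was the lowest there. Control replicate 2 was also the lowest library for the astrocyte and precursor sums, at 626.5 and 85.3 FPKM. It was the highest for the endothelial sum, at 80.8 FPKM. Its neuronal marker sum was 1998 FPKM, below the 2046 and 2049 FPKM of control replicates 1 and 3. In PS the neuronal sums were 1944.6 to 2108.5 FPKM. The part of these marker levels in the neuronal genes was not tested. Without control replicate 2 no member was called and the members' median was -0.020. Control libraries spread more widely than PS libraries in 40 of 53 members, or 75.5%, beside 68.2% of all tested genes.

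Muscleblind proteins set exons that change as tissues mature and are held by the expanded repeats of myotonic dystrophy in people. Mbnl1 had 13.0, 12.2 and 12.6 FPKM in PS, against 13.1, 13.7 and 12.3 FPKM in control. Mbnl2, the main form of adult brain, had 62.5, 54.9 and 57.6 FPKM in PS, against 61.5, 63.4 and 58.4 FPKM in control. The groups overlapped in both (log2 fold changes -0.04 and -0.07). Mbnl3 was not tested: it had 9, 3 and 6 reads in PS and 15, 7 and 8 reads in control, too few for a fold.

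KHDRBS proteins are STAR-family factors that set an alternative exon of the neurexins. Khdrbs1 (Sam68) had 42.3, 42.1 and 40.8 FPKM in PS, against 39.5, 42.4 and 41.5 FPKM in control. Khdrbs3 (SLM2) had 35.8, 38.4 and 31.6 FPKM in PS, against 34.9, 35.7 and 30.9 FPKM in control. Groups overlapped, with log2 fold changes of 0.02 and 0.06. Khdrbs2 (SLM1) fell under the filter on low values, at 0.26, 0.245 and 0.232 FPKM in PS and 0.304, 0.23 and 0.295 FPKM in control. It had 149 to 199 reads per library over a recovered length of 16505 bases.

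**Figure D4:**
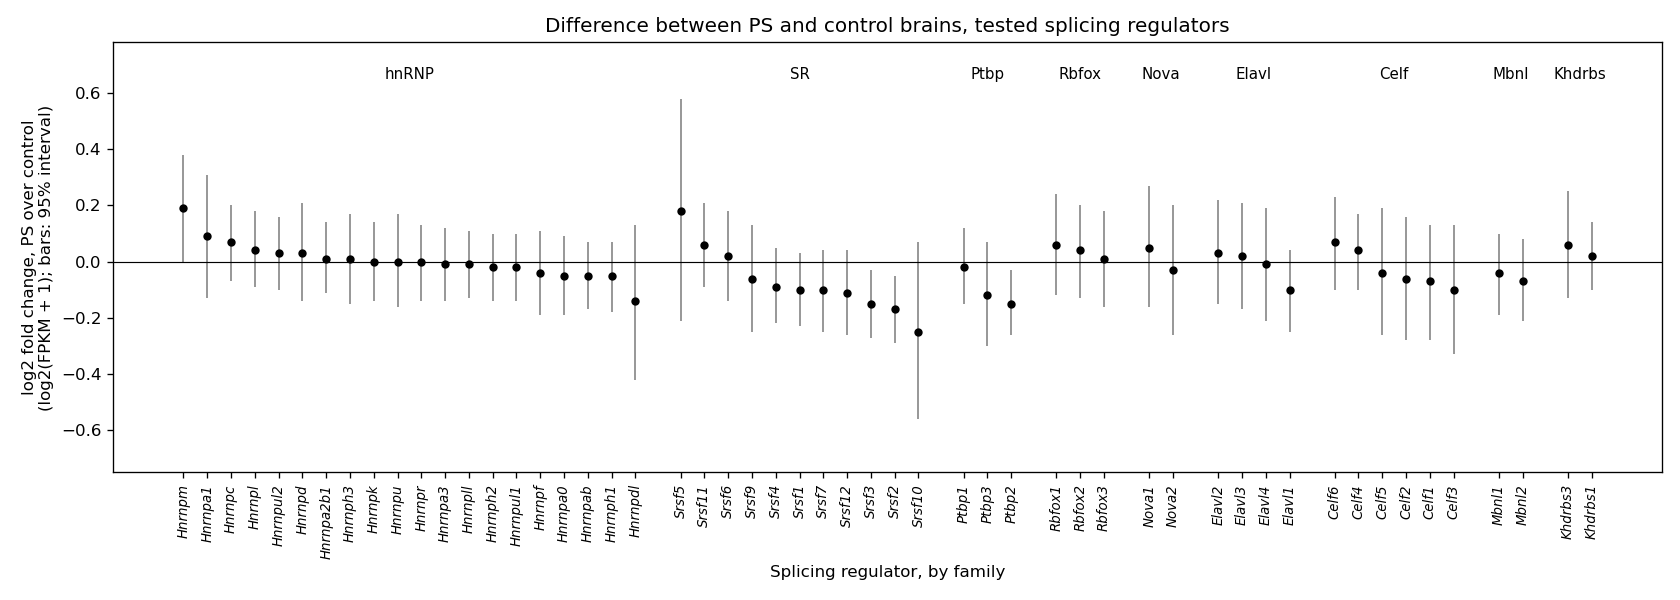
Log2 fold change (y, from log2(FPKM + 1)), with PS over control, of the 53 tested members by family (x), with 95% intervals from limma. Only the intervals of Srsf2, Srsf3 and Ptbp2 leave out 0 before adjustment, and the widest belong to Srsf5, Srsf10 and Hnrnpdl.

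Other genes of the splicing machinery were read from a list of 80, of which 79 were found and 73 tested, with 0 called. The share called over all tested genes was 0.164%. Their log2 fold changes were positive in 28 and negative in 45 (61.6%), with a median of -0.015. Over all tested genes 48.6% were negative. Of 29 tested genes of the U1, U2, Sm and U5 core, 12 were positive and 17 negative, all between -0.11 and 0.11. Of 15 tested SR-related proteins and SR kinases, 5 were positive and 10 negative, with a median of -0.086. Of 29 other RNA-binding regulators, 11 were positive and 18 negative. Among the 73, PS values lay wholly below control in 6 and wholly above in 3, beside 6.33% and 4.93% of all tested genes.

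Clk1, a kinase that phosphorylates SR proteins and frees them from speckles, was the nearest to a call. It had 15.2, 16.6 and 15.4 FPKM in PS, against 24.3, 24.5 and 19.7 FPKM in control, without overlap. Its log2 fold change was -0.50 (SE 0.088, 95% interval -0.70 to -0.30, limma adjusted p = 0.0956, and 0.0224 with the replicate number as a block). That block rests on a pairing read from these data, and with it 48 of all tested genes were called, beside 20 without it. Over the alternatives, limma's adjusted p for Clk1 ran from 0.000911 to 0.51. Clk4, its close relative, had 4.83, 4.801 and 4.57 FPKM in PS, against 5.44, 5.75 and 5.65 FPKM in control, also without overlap (log2 fold change -0.21, limma adjusted p = 0.568). Of the 15 tested SR-related proteins and SR kinases, 3 were without overlap on the low side and 1, the kinase Srpk2, on the high side.

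Tra2a, an SR-like splicing activator, had 12.4, 13.7 and 12.1 FPKM in PS, against 16.5, 16.4 and 12.5 FPKM in control. Rbm5, a tumour suppressor that acts on exons of apoptosis genes, had 17.4, 18.9 and 17.6 FPKM in PS, against 22.5, 24.6 and 18.0 FPKM in control. Pnn, the speckle protein pinin, had 11.3, 11.7 and 13.4 FPKM in PS, against 14.8, 14.4 and 12.5 FPKM in control. In all 3, control replicate 3 was the lowest control library and lay within the PS range, while for Srsf10 it lay just below that range. Their log2 fold changes were -0.23, -0.25 and -0.18, and limma's adjusted p lay between 0.817 and 0.845. With sample weights Tra2a and Rbm5 were called, at log2 fold changes of -0.33 and -0.30 (limma adjusted p = 0.0275 and 0.0268), as were Clk1 (adjusted p = 0.000911) and Acin1 (adjusted p = 0.031), beside 5.17% of all tested genes.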

How the data were processed

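RNA was measured in 6 whole-brain libraries, 3 PS and 3 control, assigned by their labels. The authors deposited FPKM values, 1 table per library; per the submitters' processing notes, fastp, HISAT2, HTSeq, R 3.2.0 and GRCm39 were involved, in no stated order. Library totals and gene lengths were recovered from the whole-number steps of the values (26555 of 26556 genes whole in every library within 0.02 reads, anchored on mitochondrial gene lengths); reads served for depth and 1 added alternative. The columns were mapped to samples by file.

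Genes with a mean of at least 1 FPKM were tested (12229 kept, 15149 left out) on log2(FPKM + 1) with limma 3.58.1 in R 4.3.3: group only, variance trend, two-sided, Benjamini-Hochberg over all tested genes, called under 0.05. The scale understates changes of low genes. Levels with ± are SDs. The fit was run on simulated counts that gave every gene the same dispersion and no library effects beyond depth. That run does not show how the fit handles control libraries that split as these do. Per-library values are given for the lowest p of each family group (5 hnRNP, 4 SR, 6 others) and for members fixed by role; members and lists were chosen with earlier results of these data known. Same-numbered libraries deviated together (correlations 0.181, 0.185 and 0.161, all over 0.1); this pairing comes from the data, not the labels, and a fit with the replicate block is printed where it changes a call. Exon overlaps and shared words of 50 bases used GENCODE M21 (GRCm38). Python 3.11.15, scipy 1.17.1 and matplotlib 3.10.9 were used. Alternatives were pseudocounts of 0.1 and 0.5, no filter or a mean of 5 FPKM, median rescaling, no variance trend, sample weights, the replicate block, each library left out and, added after seeing the data, limma-voom on recovered reads.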

Additional observations from a re-analysis of the deposited data

How the results depend on the processing

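No splicing regulator was called under 13 of 15 alternatives. With sample weights 4 were, and without control replicate 3, 2; leaving out each library gave 0 to 2. The members' median log2 fold change ran from -0.029 without PS replicate 1 to 0.008 without PS replicate 3. Of the other splicing genes, 4 were called with sample weights (Clk1, Tra2a, Rbm5 and Acin1), 1 (Clk1) with the replicate block and 0 to 1 with a library left out. Over all genes 20 were called, but 1 with no filter, 9 at a mean of at least 5 FPKM, 632 with sample weights, 48 with the replicate block and 0 to 66 with a library left out. Among the members and the other splicing genes, the replicate block changed no call but that of Clk1. The difference in the Ptbp2 to Ptbp1 ratio stayed between -0.17 and -0.11 with a library left out. With 3 libraries a group, the 11.4% lower mean of Srsf2 did not pass the adjusted test.

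Of the 53 tested members, 24 kept the sign of their fold change in every alternative and 29 turned in at least 1, 27 of them with a library left out. None of the turned values was called, and the cause was not tested. The 29 were 15 of the genes given by library, whose values follow, and 14 others: Hnrnpa0, Hnrnpa3, Hnrnpd, Hnrnph3, Hnrnpll, Hnrnpr, Hnrnpu, Hnrnpul1, Hnrnpul2, Srsf6, Srsf9, Celf1, Celf2 and Celf5. With sample weights the log2 fold changes were 0.07 for Celf3, -0.09 for Elavl2, -0.03 for Elavl3, -0.005 for Hnrnpa2b1, -0.04 for Nova1 and 0.02 for Nova2. With a library left out they ran from -0.03 to 0.11 for Elavl2, -0.08 to 0.08 for Elavl3, -0.07 to 0.07 for Elavl4, -0.01 to 0.20 for Hnrnpa1, -0.01 to 0.03 for Hnrnpa2b1, -0.23 to 0.02 for Hnrnpdl, -0.03 to 0.05 for Hnrnpk, -0.01 to 0.04 for Khdrbs1, -0.01 to 0.13 for Khdrbs3, -0.05 to 0.11 for Nova1, -0.11 to 0.08 for Nova2, -0.04 to 0.01 for Ptbp1, -0.02 to 0.09 for Rbfox2 and -0.03 to 0.09 for Rbfox3.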
